A study of Mus musculus with 70 samples.

Results

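The embryonic hypothalamus was compared with the embryonic midbrain and hindbrain in 8 mRNA-seq libraries of mouse brain at E14.5, out of the 70 libraries of the atlas. The libraries were chosen by their labelled region alone. THy/PHy, the terminal (rostral) and peduncular (caudal) hypothalamus, had 3 libraries, midbrain (M) had 2 and hindbrain (H) had 3. The embryos were C57BL/6NTac by the study's methods (C57BL/6 in the labels), with no treatment named, and each library pooled punches from 4 embryos. The study used fewer embryos than these pools add up to, so that libraries of different regions share embryos, and the sources used here do not say which libraries do. The punches were taken from frozen sagittal sections and hold every cell type at that place. The forebrain (F) had 1 library and is given as a level only.

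The hypothalamus arises from the ventral forebrain under Shh signalling from the midline, and homeodomain and related transcription factors divide it into tuberal, paraventricular, mammillary and other domains. Neurons that sense energy state and neurons that drive pituitary hormone release are born there in mid gestation. The midbrain and hindbrain are patterned instead by the isthmic organizer at their border and, in the hindbrain, by the Hox code. The comparison addresses which genes set the developing hypothalamus apart from brain tissue of the same age. Levels are gene TPM (the length-corrected share of each gene in its library, scaled to the same total in all libraries) and differences are log2 fold changes of THy/PHy over the average of M and H, both regions weighted equally.

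The total estimated count was 15966278 to 16598573 in THy/PHy, 15920930 and 17256421 in M and 9074581 to 16776555 in H. H replicate 1 had the lowest total and stood apart from the other H libraries. Mitochondrial transcripts held 22.6% of its TPM, against 2.84% to 11.8% in the other 7 libraries, its Tubb3, a tubulin of neurons, was 348.3 TPM against at least 1193 TPM in the others, and its Col2a1, the cartilage collagen, was 941.8 TPM against at most 184.7 TPM. On the log2(TPM + 1) scale, libraries of the same region correlated with Pearson's r of 0.974 to 0.987 in THy/PHy, 0.985 in M and 0.955 to 0.980 in H. Libraries of different regions correlated at 0.933 to 0.981, so that the ranges overlapped. THy/PHy replicate 1 reached 0.981 with M replicate 1, above its 0.974 with each other THy/PHy library. The p-values below measure the spread between these pools of embryos.

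Both marker genes of the hypothalamus fitted the label. Nkx2-1, the homeodomain factor that specifies ventral forebrain including most of the hypothalamus, stood at 138.1, 115.4 and 71.8 TPM in THy/PHy, at 1.12 and 1.11 TPM in M and at 0.209, 0 and 0.188 TPM in H. Sim1, needed for the neurons of the paraventricular and supraoptic nuclei, stood at 11.2, 19.9 and 12.4 TPM in THy/PHy, at 1.85 and 0.774 TPM in M and at 0.316, 0.42 and 0.489 TPM in H. For both genes the lowest THy/PHy library lay above every M and H library. Nkx2-1 (GRCm38 chr12:56531958-56536908) was higher by 8.09 on the log2 scale (SE 0.41, edgeR quasi-likelihood adjusted p = 0.000177) and Sim1 (chr10:50894754-50989152) by 4.40 (SE 0.27, adjusted p = 0.0003415). F held Nkx2-1 at 128.2 TPM and Sim1 at 0.266 TPM, so that Nkx2-1 did not separate THy/PHy from the forebrain punch.

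The test covered 16424 genes. THy/PHy exceeded the average of M and H in 80 of them (0.487%) and was below it in 91 (0.554%), at an adjusted p under 0.05 and a log2 fold change above 1 in size. Against M alone 36 (0.219%) were higher and 44 (0.268%) lower, and against H alone 80 (0.487%) and 194 (1.18%). Of these, 33 were higher against both regions, 91.7% of those higher than M and 41.2% of those higher than H, and 30 were lower against both, 68.2% and 15.5%. The median log2 fold change over all genes was 0.01 against the average, 0.00 against M and -0.02 against H. With limma on TPM, where the test, the scaling and the filter on low values all differ, the split became 30 higher and 24 lower against M, and 65 higher and 68 lower against H. Without H replicate 1 the counts against the average were 177 and 160 and held 80 of the 80 and 90 of the 91 genes. They were 47 and 97 without M replicate 1, 47 and 51 without M replicate 2, 54 and 40 without THy/PHy replicate 1, 38 and 29 without THy/PHy replicate 2 and 40 and 30 without THy/PHy replicate 3.

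**Figure D1:**
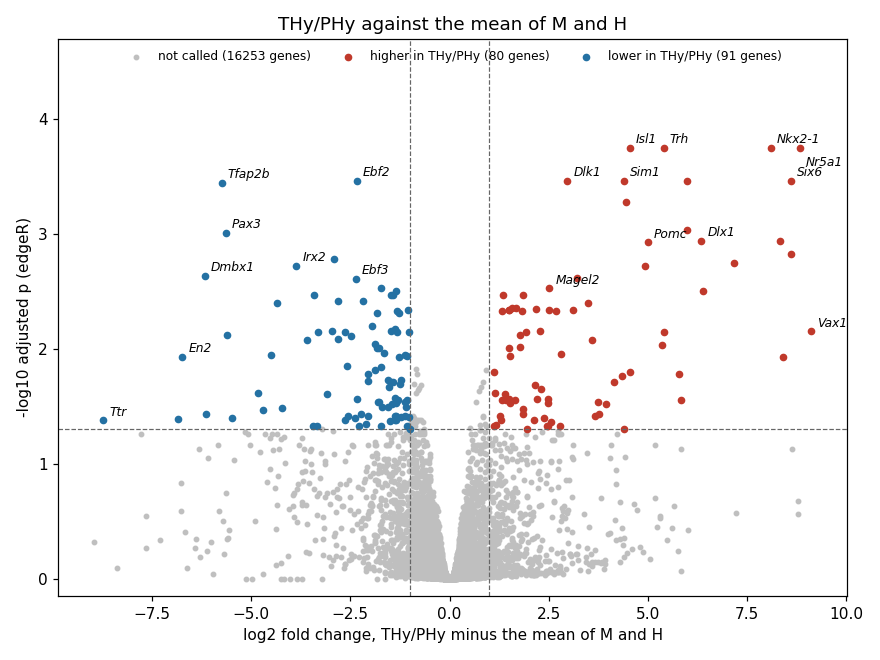
Each point is a gene, with the log2 fold change of THy/PHy over the average of M and H on the x axis and -log10 of the edgeR adjusted p on the y axis. Dashed lines mark an adjusted p of 0.05 and a log2 fold change of 1 in either direction; the 80 higher genes are red and the 91 lower genes blue.

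Transcription factors of the anterior and tuberal hypothalamus formed the group with the largest share of genes that rose. Of 14 tested, 10 were higher against the average of M and H and 0 lower, with a median log2 fold change of 5.87 against 0.01 over all genes. Against M alone 7 were higher and against H alone 9. The 10 were Nkx2-1, Nkx2-4, Rax, Six6, Vax1, Fezf1, Fezf2, Hmx2, Tbx3 and Bsx. Leaving out each library in turn left 8 to 11 of the 14.

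Fezf1, a zinc finger repressor of the rostral forebrain, stood at 50.3, 57.8 and 47.3 TPM in THy/PHy, at 0.181 and 0.297 TPM in M and at 0.375, 0 and 0 TPM in H. Its groups did not overlap, and its log2 fold change was 8.32 (SE 0.63, adjusted p = 0.00114). Rax, the retina and anterior neural fold homeobox gene that the tuberal hypothalamus needs, stood at 30.3, 22.5 and 8.62 TPM in THy/PHy, at 0.136 and 0.37 TPM in M and at 0.0935, 0.436 and 0.0678 TPM in H. Its log2 fold change was 6.38 (SE 0.61, adjusted p = 0.00315), and the lowest THy/PHy library was again above the highest reference library. Tbx3, a T-box factor of the tuberal and arcuate territory, stood at 20, 24.9 and 15.1 TPM against 1.41 to 3.33 TPM in the 5 reference libraries, a log2 fold change of 3.48 (SE 0.35, adjusted p = 0.00394).

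Several of these genes had almost no reads in a reference region, so that a fitted fold change carries little meaning and the ratio of pooled counts is given with its exact 95% interval, which covers counting error only. Six6, a homeodomain factor of the retina, hypothalamus and pituitary, stood at 19.8, 34 and 17.4 TPM in THy/PHy, at 0.0269 and 0.029 TPM in M and at 0.229, 0.098 and 0.0533 TPM in H. Its pooled ratio over M and H was 305.2 (181.6 to 559.0; adjusted p of the fit 0.0003415). Nkx2-4, the close relative of Nkx2-1, stood at 53.3, 23.7 and 13.6 TPM in THy/PHy and at most 0.291 TPM elsewhere, a pooled ratio of 352.5 (161.5 to 962.1, adjusted p = 0.0015). Bsx, needed by the neurons that drive feeding through Npy and Agrp, stood at 18.2, 20.3 and 12.7 TPM in THy/PHy. It was at most 0.837 TPM in M and H, a pooled ratio of 82.1 (56.2 to 125.0, adjusted p = 0.00178), and 5.1 TPM in F. Vax1, a ventral forebrain and optic stalk homeobox gene, stood at 65.2, 22.7 and 15.6 TPM in THy/PHy, at 0.117 and 0.382 TPM in M and at 0 in all 3 H libraries. With 3 counts over the libraries of H as the floor, it was at least 194.3-fold higher (adjusted p = 0.00701). All 4 had separate groups in TPM.

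**Figure D2:**
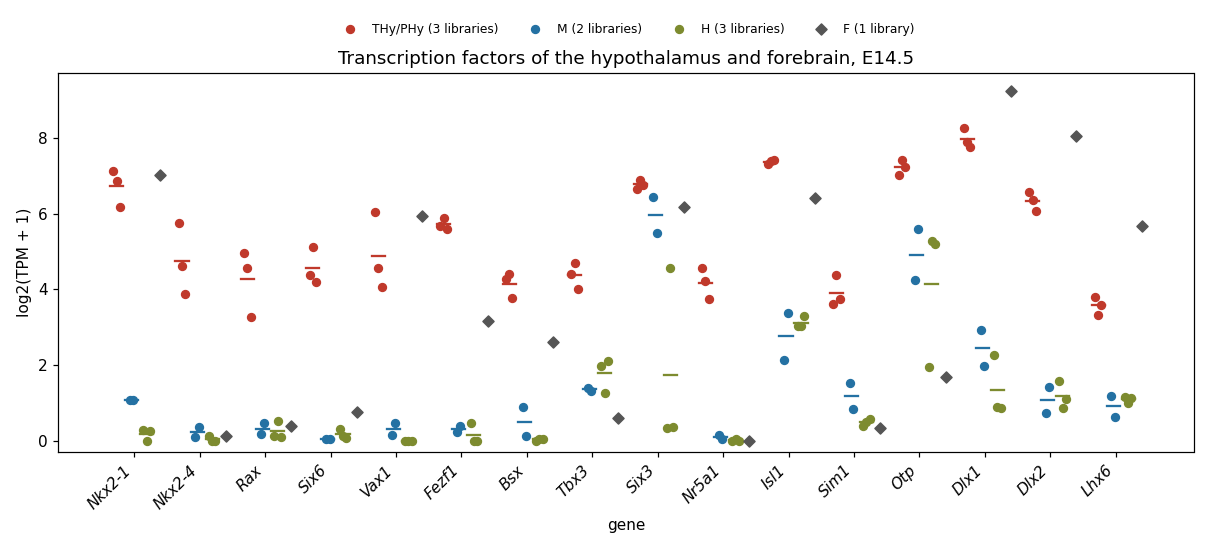
Levels of 16 transcription factor genes in each library, as log2(TPM + 1), with a point per library and a bar at the mean of the points of a region. THy/PHy lies apart from M and H for most genes, while Six3 and Otp have M or H libraries with substantial levels, and F (grey diamonds) shares Nkx2-1, Vax1, Isl1 and the Dlx genes with THy/PHy.

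The other 4 genes of the group did not pass the test. Six3, a homeodomain factor of the anterior forebrain and eye, stood at 100.3, 118.6 and 106.4 TPM in THy/PHy, at 85.9 and 43.5 TPM in M and at 0.251, 22.6 and 0.276 TPM in H (adjusted p = 0.567). THy/PHy was above every reference library, but the H libraries spread widely and M reached levels near those of THy/PHy. Hmx3 (adjusted p = 0.068), Foxd1 (0.196) and Gsx1 (0.228) also missed the threshold.

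Of the 7 genes of the ventromedial and arcuate lineages, 4 were higher and 0 lower, with a median log2 fold change of 3.77. Nr5a1 (SF-1), the nuclear receptor that marks the ventromedial nucleus, stood at 22.7, 17.5 and 12.4 TPM in THy/PHy, at 0.11 and 0.0398 TPM in M and at 0, 0.0335 and 0 TPM in H. The pooled ratio was 439.1 (187.7 to 1354.3, adjusted p = 0.000177). F listed Nr5a1 at 0, in contrast to Nkx2-1. Isl1, a LIM homeodomain factor needed by arcuate neurons, stood at 158.3, 167.9 and 168.9 TPM in THy/PHy, at 3.41 and 9.44 TPM in M and at 7.19, 7.16 and 8.77 TPM in H. Isl1 had a log2 fold change of 4.54 (SE 0.23, adjusted p = 0.000177). Its 3 THy/PHy libraries lay close together, far above every M and H library. F held Isl1 at 84.9 TPM, below every THy/PHy library and above every M and H library.

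Neurog3, the proneural gene of arcuate progenitors, stood at 6.06, 4.48 and 2.25 TPM in THy/PHy and at 0 in all 5 reference libraries. With a floor of 3 counts for each region it was at least 34.3-fold higher (adjusted p = 0.0118), and the call was lost without any of the THy/PHy libraries (adjusted p up to 0.102). Nr0b1 (DAX-1), a nuclear receptor that binds SF-1, stood at 3.84, 2.43 and 2.15 TPM against 0 to 0.341 TPM (log2 fold change 3.77, SE 0.63, adjusted p = 0.0371). That call was lost in 6 of 8 fits with a library removed, all except those without H replicate 1 or 2 (adjusted p up to 0.192). Nkx2-2 (adjusted p = 0.139), Prdm12 (0.052) and Sox14 (0.985) did not pass against the average. Leaving out a library left between 2 and 6 of the 7 genes.

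Of the 5 genes of the paraventricular and supraoptic lineages, Sim1 was higher and 0 were lower (median log2 fold change 2.46). Otp, which acts with Sim1 in neuroendocrine neurons, stood at 129, 170 and 148.3 TPM in THy/PHy, at 18 and 46.9 TPM in M and at 2.88, 38.1 and 35.4 TPM in H. The groups were separate, yet the log2 fold change of 2.46 had an SE of 0.61 and did not pass (adjusted p = 0.125). H replicate 1 lay far below the other H libraries. Without H replicate 1, 3 of the 5 were higher. Arnt2, the partner of Sim1 (log2 fold change 0.11, SE 0.20, adjusted p = 0.973), and Pou3f2 (Brn2; -0.68, SE 0.35, adjusted p = 0.616), both active in many neurons, did not pass the test.

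Among 8 genes of the mammillary and lateral hypothalamus 1 was higher and 1 lower (median log2 fold change -1.09). At an unadjusted p under 0.05, 2 were higher and 5 lower (edgeR), and DESeq2 called 1 higher and 3 lower. Of the fits with a library removed, 2 called a higher gene and 6 a lower one. Barhl1, a homeodomain factor of this territory, stood at 12.9, 21.8 and 10.6 TPM in THy/PHy, at 91.9 and 70.1 TPM in M and at 20.7, 46 and 35.9 TPM in H. It was lower by -1.87 (SE 0.23, adjusted p = 0.00912), with the call lost without THy/PHy replicate 1 or 3 (adjusted p up to 0.0539), and the highest THy/PHy library was above the lowest H library. Foxb1, Lmx1a, Lmx1b, Lhx1, Lhx5 and Lhx9, which this territory shares with midbrain and hindbrain, did not pass the test.

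Of 10 tested genes of the forebrain GABA lineage 4 were higher and 0 lower (median log2 fold change 4.21). Leaving out a library gave between 3 higher genes (without THy/PHy replicate 3) and 8 (without H replicate 1). Dlx1, a homeodomain factor that starts GABA neuron differentiation in the forebrain, stood at 307.3, 237.6 and 215.9 TPM in THy/PHy, at 6.58 and 2.91 TPM in M and at 3.84, 0.869 and 0.821 TPM in H. Dlx2, its neighbour with the same role, stood at 93.9, 81.1 and 66.6 TPM in THy/PHy and at 0.661 to 2 TPM in the 5 reference libraries. The groups of both genes were separate, and the log2 fold changes were 6.34 for Dlx1 (SE 0.49, adjusted p = 0.00114) and 5.98 for Dlx2 (SE 0.43, adjusted p = 0.00092). Lhx6, a LIM homeodomain factor, was higher by 3.60 (SE 0.44, adjusted p = 0.00839), a call lost without THy/PHy replicate 3 (adjusted p = 0.0535).

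The GABA lineage genes are also those of the ventral telencephalon, and F held Dlx1 at 609.4 TPM and Dlx2 at 266.5 TPM, above every THy/PHy library. The telencephalic markers summed to 88.2 to 154.5 TPM in THy/PHy, 138.5 and 196.1 TPM in M, 139.6 to 188 TPM in H and 651.7 TPM in F, and of 9 tested 1, Neurod2, was lower (log2 fold change -2.07, SE 0.30, adjusted p = 0.0189; lost without M replicate 2 or THy/PHy replicate 2 or 3, adjusted p up to 0.122) and 0 higher. At an unadjusted p under 0.05, 3 of these 9 markers were higher and 3 lower (edgeR), and DESeq2 called 2 higher and 2 lower. The part of telencephalic tissue in the Dlx levels was not tested. Of 17 genes of transmitter synthesis and transport 0 passed edgeR's test against the average (3 higher and 3 lower at an unadjusted p under 0.05, and 2 and 1 called by DESeq2). Against H alone edgeR called 1 higher and 1 lower, and against M alone 0. That list holds genes of other transmitters beside those of GABA and glutamate, so its counts do not describe the GABA genes alone. Gad1, the GABA-synthesizing enzyme, stood at 83, 69.1 and 61.6 TPM in THy/PHy, at 121.6 and 101.8 TPM in M and at 16.8, 48.3 and 72.7 TPM in H.

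**Figure D3:**
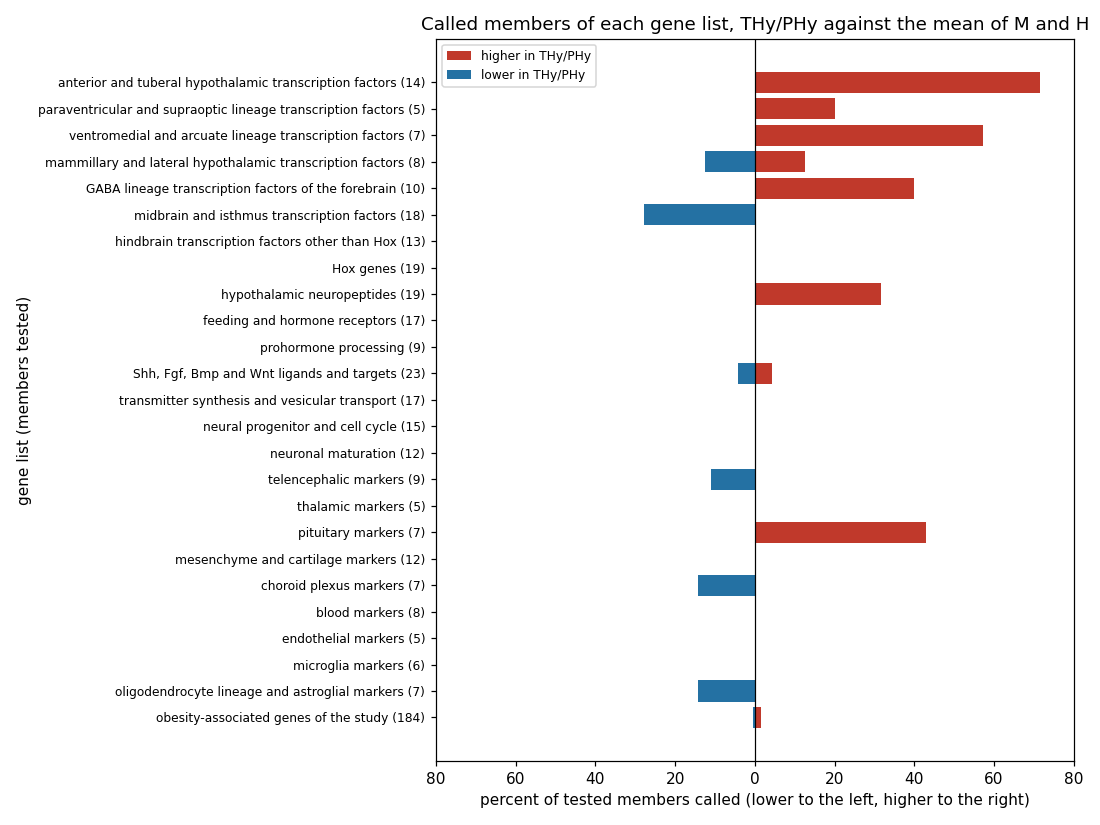
Share of the tested members of each of 25 gene lists that were called higher (red, right) or lower (blue, left) in THy/PHy than in the average of M and H, in percent, with the number of tested members after each name. The largest shares of higher genes belong to 3 lists of hypothalamic or GABA lineage factors, the pituitary markers and the neuropeptides.

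Among neuropeptide genes, Trh, Pomc and Pmch were high in THy/PHy and low elsewhere, while others were present in all regions or near 0. Of 30 genes, 19 passed the filter on low counts, 6 were higher and 0 lower against the average (median log2 fold change 0.18). Leaving out a library gave 2 (without THy/PHy replicate 2 or 3) to 6 higher genes, with 3 without M replicate 2 or THy/PHy replicate 1. Against M alone 2 were higher and 1 lower, and against H alone 4 were higher and 0 lower. Trh, the thyrotropin-releasing hormone precursor, stood at 16.8, 21 and 22.3 TPM in THy/PHy, at 0.504 and 0.549 TPM in M and at 0.347, 0.462 and 0.419 TPM in H. Its log2 fold change was 5.40 (SE 0.26, adjusted p = 0.000177), with separate groups and little spread in each. Pomc, the precursor of the appetite-reducing melanocortins and of pituitary corticotropin, stood at 103.5, 74.7 and 36.7 TPM in THy/PHy, at 2.16 and 3.32 TPM in M and at 0.524, 0.929 and 1.9 TPM in H. It was higher by 4.99 (SE 0.39, adjusted p = 0.00118), again without overlap.

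Pmch, which codes for melanin-concentrating hormone of the lateral hypothalamus, stood at 18, 26.5 and 42.2 TPM in THy/PHy, at 0.771 and 0 TPM in M and at 0.982, 0 and 1.31 TPM in H. Its log2 fold change was 5.79 (SE 0.81, adjusted p = 0.0166), and the call was lost without M replicate 2 or THy/PHy replicate 2 or 3 (adjusted p up to 0.0876). The other 3 peptide genes that rose were low or rose little. Ghrh, growth hormone-releasing hormone, stood at 7.36, 6.08 and 7.58 TPM against 0.86 to 2.19 TPM (log2 fold change 2.13, SE 0.37, adjusted p = 0.0419). Pdyn, the dynorphin precursor, stood at 6.78, 5.99 and 5.14 TPM against 1.01 to 3.35 TPM (1.497, SE 0.19, adjusted p = 0.0099). Npvf, the precursor of the RFamide peptides, stood at 2.9, 4.87 and 1.94 TPM against 0 to 0.479 TPM, a pooled ratio of 12 (5.73 to 29.0, adjusted p = 0.0301). Their groups were separate, but the Ghrh and Npvf calls held only without H replicate 1 among the 8 left-out fits (adjusted p up to 0.216 and 0.154), and the Pdyn call was lost without any of the THy/PHy libraries (adjusted p up to 0.0847).

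Other tested peptides of the adult hypothalamus did not pass edgeR's test against the average at E14.5. At an unadjusted p under 0.05, 9 of the 19 tested peptide genes were higher, the 6 called among them, and 2 were lower. Gal, galanin, stood at 4.66, 5.25 and 16 TPM in THy/PHy against 0.261 to 2.27 TPM, without overlap, but missed the threshold (log2 fold change 2.76, SE 0.63, adjusted p = 0.0952). Npy, the appetite-raising peptide of arcuate neurons, stood at 21.2, 29.1 and 36.6 TPM in THy/PHy, at 67.4 and 18 TPM in M and at 124.9, 200.7 and 28.5 TPM in H (-1.34, SE 0.71, adjusted p = 0.636). Its groups overlapped, and the highest levels were in H. Sst (-0.56, SE 0.34, adjusted p = 0.718) and Cartpt (1.26, SE 0.39, adjusted p = 0.241) also overlapped or missed the threshold. Nts, neurotensin, at 2.93, 3.07 and 3.09 TPM, was lower than in M, with 20.7 and 10.8 TPM (-2.22, SE 0.35, adjusted p = 0.046), and above H, with 0.782 to 1.61 TPM, without passing there (1.04, SE 0.34, adjusted p = 0.198).

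The peptides of magnocellular and orexin neurons were barely present. Avp, vasopressin, stood at 1.63, 2.18 and 1.04 TPM in THy/PHy and at 0 in the 5 reference libraries, at least 4.85-fold higher with a floor of 3 counts for each region. Hcrt, orexin, stood at 1.06, 0.948 and 0.929 TPM against at most 0.249 TPM, and Oxt, oxytocin, reached 1.24 TPM in a single THy/PHy library. Agrp stayed between 0.386 and 1.98 TPM in all 8 libraries. These 4 genes did not pass the filter on low counts. Without that filter edgeR's adjusted p was 0.104 for Avp, 0.387 for Hcrt and 1 for Oxt and Agrp. Limma on log2(TPM + 0.5) over all genes called Avp higher (2.04 on that scale, SE 0.19, adjusted p = 0.0106), while Hcrt missed the threshold (adjusted p = 0.0602). Limma with its filter on low values did not call Avp (adjusted p = 0.0585 with 0.5 and 0.0944 with 0.1 added to TPM). Neither did edgeR on all 70 libraries (adjusted p = 0.332).

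**Figure D4:**
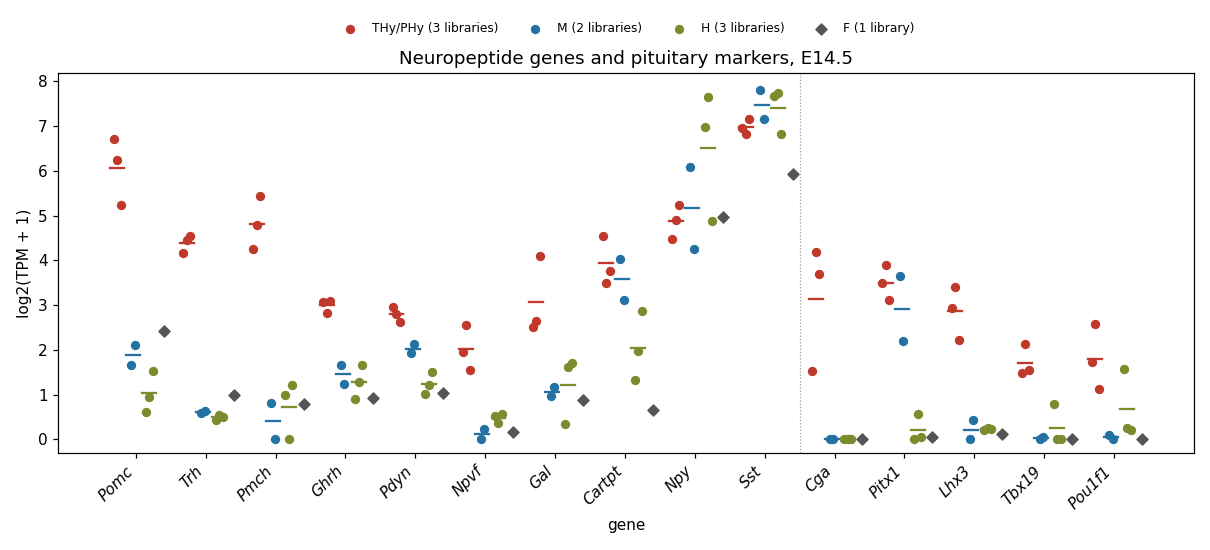
Levels of 10 neuropeptide genes (left of the dotted line) and 5 pituitary marker genes (right) in each library, as log2(TPM + 1), with bars at the mean of the points of a region. Trh, Pomc and Pmch lie apart in THy/PHy, Npy and Sst are as high or higher in M and H, and the pituitary markers are raised in THy/PHy but differ between its libraries.

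Summed levels of pituitary markers were higher in THy/PHy. The gland touches the ventral hypothalamus, and its markers summed to 29.6, 68.9 and 32.1 TPM in THy/PHy, against 17.1 and 13.4 TPM in M and 5.33 to 6.24 TPM in H. Of 7 tested members of 10, 3 were higher and 0 lower (median log2 fold change 3.81), and 1 was higher without M replicate 1 or 2 or THy/PHy replicate 2 or 3. At an unadjusted p under 0.05, 6 were higher and 1 lower (edgeR), and DESeq2 called 6 higher and 1 lower. Lhx3, a LIM homeodomain factor of the pituitary primordium, stood at 6.69, 9.65 and 3.68 TPM against at most 0.35 TPM (5.40, SE 0.64, adjusted p = 0.00717). Tbx19, the corticotroph T-box factor that activates Pomc, stood at 1.78, 3.36 and 1.91 TPM against at most 0.724 TPM (pooled ratio 69.7, 23.4 to 342.3, adjusted p = 0.0277). Among the 8 left-out fits the Tbx19 call held only without H replicate 1 or 3 (adjusted p up to 0.138).

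Cga, the subunit shared by pituitary glycoprotein hormones, stood at 1.87, 17.3 and 12 TPM in THy/PHy and at 0 in all reference libraries, at least 39.9-fold higher with a floor of 3 counts for each region, and did not pass the test (adjusted p = 0.0746). Gh and Prl, made by the mature gland, were at 0 in all 8 libraries. Pomc was highest in THy/PHy replicate 1, where the sum of the pituitary markers (29.6 TPM, close to 32.1 TPM in replicate 3) and Cga were lowest among the 3 libraries. Six6 was highest in THy/PHy replicate 2, where that sum (68.9 TPM) and Cga were highest. The part of pituitary tissue in the levels of Pomc and Six6 was not tested.

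Promoter sequences are shown for both hypothalamic marker genes and for Pomc and Pmch, the called peptide precursors with the highest mean TPM in THy/PHy, so that the start regions of a regulator and of a peptide gene can be read side by side. They were taken from RefSeq (GRCm38.p6) as the 300 bases from 250 before to 50 after the annotated start farthest upstream, read 5′ to 3′ on the strand of the gene. Capitals mark TATAAA, the TATA box (or TTTATA, the same letters on the other strand), and CAAGTG, the core letters of sites that Nkx2-1 can bind. The windows are chr12:56536859-56537158 (minus strand) for Nkx2-1, chr10:50895401-50895700 (plus) for Sim1, chr12:3954695-3954994 (plus) for Pomc and chr10:88090822-88091121 (plus) for Pmch.
Nkx2-1: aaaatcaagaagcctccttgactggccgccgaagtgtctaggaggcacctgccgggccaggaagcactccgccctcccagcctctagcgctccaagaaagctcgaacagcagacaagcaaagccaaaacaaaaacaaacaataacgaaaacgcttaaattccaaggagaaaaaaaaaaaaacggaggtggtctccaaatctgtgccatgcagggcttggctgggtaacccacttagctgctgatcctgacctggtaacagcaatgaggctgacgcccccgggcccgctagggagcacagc
Sim1: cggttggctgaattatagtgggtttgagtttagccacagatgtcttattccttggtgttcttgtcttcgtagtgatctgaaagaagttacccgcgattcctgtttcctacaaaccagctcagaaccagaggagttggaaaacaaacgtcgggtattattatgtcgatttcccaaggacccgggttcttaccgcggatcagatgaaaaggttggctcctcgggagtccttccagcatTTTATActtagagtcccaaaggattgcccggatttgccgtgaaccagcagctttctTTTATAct
Pomc: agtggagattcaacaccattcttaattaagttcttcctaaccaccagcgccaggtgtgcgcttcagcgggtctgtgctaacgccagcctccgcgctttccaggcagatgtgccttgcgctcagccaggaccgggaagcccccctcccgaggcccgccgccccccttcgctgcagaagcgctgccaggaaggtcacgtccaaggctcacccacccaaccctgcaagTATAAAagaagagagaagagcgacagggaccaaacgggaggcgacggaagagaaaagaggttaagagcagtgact
Pmch: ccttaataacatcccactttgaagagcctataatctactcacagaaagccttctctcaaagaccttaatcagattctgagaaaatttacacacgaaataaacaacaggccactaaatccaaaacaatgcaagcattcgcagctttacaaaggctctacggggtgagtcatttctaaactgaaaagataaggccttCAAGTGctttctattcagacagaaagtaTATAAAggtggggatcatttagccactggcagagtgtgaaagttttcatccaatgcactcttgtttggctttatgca

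TATAAA, on either strand, was in the window of 15 of 62 higher genes with a sequence (24.2%) and 13 of 65 lower genes (20%), beside 906 of 11845 tested genes (7.65%). It was in 5 of 25 windows of the neuropeptide list (20%) and in 1 of 12 windows of the anterior and tuberal transcription factors (8.33%). CAAGTG was in 10 windows of higher genes (16.1%), 5 of lower genes (7.69%) and 11.2% of all tested genes. The letters of the 2 motifs cannot overlap, no test was made, and a match describes the letters only. Of the 4 windows shown, Nkx2-1 held neither motif and Pmch held both.

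Of 18 tested transcription factors of the midbrain and the isthmus 5 were lower in THy/PHy and 0 higher (median log2 fold change -2.86). The count depended on single libraries: 1 was lower without THy/PHy replicate 2, 3 without THy/PHy replicate 1 or 3, and 9 without H replicate 1, where 1 was higher. Against M alone 6 were lower, and against H alone 4 were lower and 1 higher. Pax3, a paired box factor of the dorsal neural tube, stood at 0.584, 0.177 and 0.425 TPM in THy/PHy, at 13.5 and 22.8 TPM in M and at 15.2, 18.5 and 29.1 TPM in H. It was lower by -5.63 (SE 0.42, adjusted p = 0.000975) with separate groups. En2, the engrailed factor of the midbrain and hindbrain border, stood at 0.642, 0.172 and 0.169 TPM in THy/PHy, at 59.4 and 75.3 TPM in M and at 2.98, 33.3 and 15.8 TPM in H. Its log2 fold change was -6.73 (SE 0.88, adjusted p = 0.0118), with the H libraries far apart from each other, and its call was lost without THy/PHy replicate 2 or 3 (adjusted p up to 0.104).

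Pax8, the isthmic paired box factor, was lower by -4.50 (SE 0.58, adjusted p = 0.0113) and Gata3, the zinc finger factor of midbrain GABA neurons, by -2.81 (SE 0.34, adjusted p = 0.00827). The Pax8 call was lost without THy/PHy replicate 1 or 2 (adjusted p up to 0.0651) and the Gata3 call without THy/PHy replicate 2 (adjusted p = 0.07). Otx2, a head gap gene of forebrain and midbrain, stood at 18.6, 28.8 and 8.99 TPM in THy/PHy, at 110.2 and 129 TPM in M and at 21, 78.1 and 43.6 TPM in H. It was lower by -2.12 (SE 0.38, adjusted p = 0.0448) with overlap at H replicate 1, and the call held only without H replicate 1 or 2 (adjusted p up to 0.169). En1 (adjusted p = 0.0682) and Pax5 (0.075), close partners of En2 at the isthmus, missed the threshold. All 3 THy/PHy libraries were at most 1.1 TPM and 2.71 TPM, and M was at 46.9 to 144.4 TPM. H replicate 1 held only 0.627 and 2.9 TPM, and its part in these results was not tested.

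Other genes with large decreases follow. Tfap2b (AP-2 beta), a factor of dorsal midbrain and hindbrain neurons and of neural crest, stood at 3.4, 3.8 and 2.75 TPM in THy/PHy, at 153.5 and 245.8 TPM in M and at 105.7, 171.4 and 65.6 TPM in H. It was lower by -5.74 (SE 0.36, adjusted p = 0.000359), with every reference library far above THy/PHy. Dmbx1, a homeobox gene of the midbrain, stood at 0.147, 0.203 and 0.0745 TPM against 4.69 to 16.7 TPM (-6.16, SE 0.54, adjusted p = 0.00231). Cnpy1, an Fgf signalling modulator of the isthmus, stood at 2.03, 1 and 0.711 TPM against 7.74 to 117 TPM (-5.61, SE 0.67, adjusted p = 0.00762), a call lost without THy/PHy replicate 2 or 3 (adjusted p up to 0.0721). Pou4f2, a POU factor of retinal ganglion and midbrain neurons, stood at 0.329, 0.0319 and 0.937 TPM against 5.7 to 21.1 TPM (-4.70, SE 0.78, adjusted p = 0.0337), a call that held only without H replicate 1 or 3 or THy/PHy replicate 3 (adjusted p up to 0.144).

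**Figure D5:**
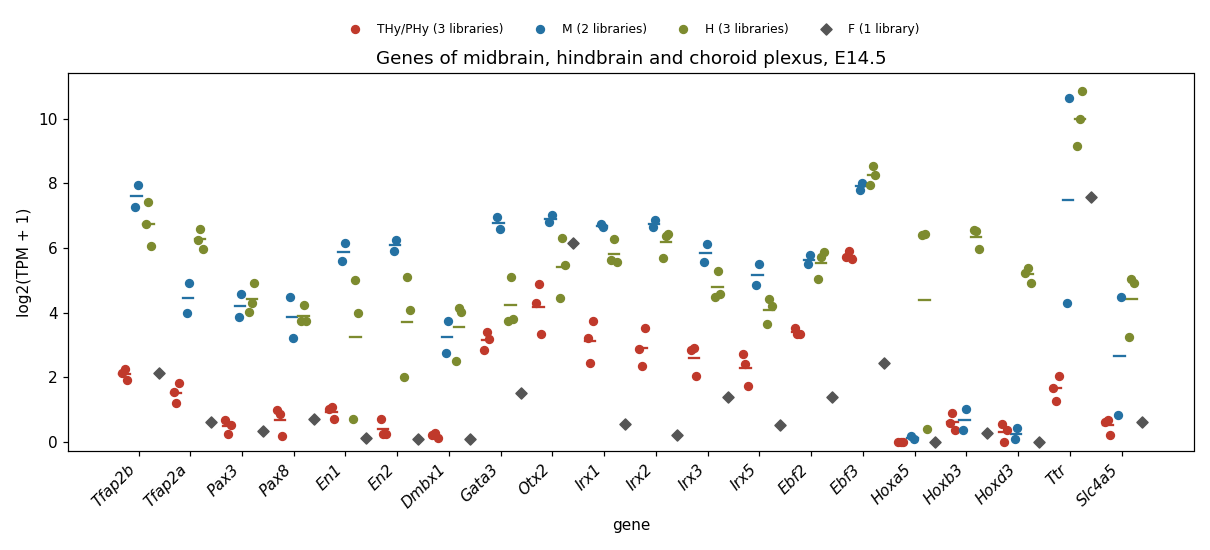
Levels of 20 genes of the midbrain, hindbrain and choroid plexus in each library, as log2(TPM + 1), with bars at the mean of the points of a region. THy/PHy lies below M and H for the Tfap2, Pax3, Dmbx1, Irx and Ebf genes, while the Hox genes are near 0 outside H, Hoxa5 also in H replicate 3, and the choroid plexus genes differ between the M libraries.

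The Hox genes, which give the hindbrain its positional code, separated THy/PHy from H but not from M. Of 39 genes 19 were tested. Against H 9 were lower and 0 higher, while against M 0 passed edgeR's test (0 at an unadjusted p under 0.05 and 0 called by DESeq2) and against the average of M and H 0 passed (5 lower and 0 higher at an unadjusted p under 0.05, and 7 lower and 0 higher called by DESeq2). Without H replicate 3, 3 were lower than the average. Hoxb3 stood at 0.477, 0.863 and 0.279 TPM in THy/PHy, at 0.281 and 1 TPM in M and at 93.7, 90.6 and 62 TPM in H (-7.76 against H, SE 0.69, adjusted p = 0.00226). Hoxd3 stood at 0.457, 0 and 0.297 TPM in THy/PHy and at 36.6, 40.8 and 29.5 TPM in H (-8.10, SE 0.74, adjusted p = 0.00238). The H libraries did not carry the same stretch of the code: Hoxa5, a more posterior member, stood at 83.1, 85 and 0.298 TPM in H and did not pass (adjusted p = 0.115).

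The other 13 hindbrain factors gave 0 calls against the average (edgeR, with 3 lower and 0 higher at an unadjusted p under 0.05, and 2 lower by DESeq2) and 2 lower against H, Atoh1 and Olig3, both of the rhombic lip and dorsal hindbrain. Atoh1 stood at 0.778, 0.0496 and 0.0487 TPM in THy/PHy, at 1.2 and 1.99 TPM in M and at 21.6, 8.26 and 19.7 TPM in H (-4.25 against the average, SE 0.84, adjusted p = 0.0606, and adjusted p = 0.0175 against H).

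Choroid plexus genes were nearly absent from THy/PHy. The 7 markers summed to 10.2, 7.9 and 8.68 TPM in THy/PHy, to 31.4 and 1761.2 TPM in M and to 614.1, 1126.4 and 2074.5 TPM in H. Ttr, transthyretin, the most abundant product of that epithelium, stood at 2.18, 1.39 and 3.09 TPM in THy/PHy, at 18.8 and 1614.4 TPM in M and at 566, 1025 and 1880 TPM in H, and was lower by -8.74 (SE 1.53, adjusted p = 0.0419). The M libraries differed more from each other than M replicate 1 did from THy/PHy. Slc4a5, a bicarbonate transporter of the choroid plexus, was lower by -6.14 (SE 1.03, adjusted p = 0.0371) and Fgf3, a fibroblast growth factor, by -5.49 (SE 0.95, adjusted p = 0.0403). In M both were far lower in replicate 1 than in replicate 2, as Ttr was, with 0.784 and 21.4 TPM of Slc4a5 and 0.668 and 10.8 TPM of Fgf3 in M. The 3 calls were lost without H replicate 2 or 3 or any THy/PHy library (adjusted p up to 0.221 for Ttr, 0.196 for Slc4a5 and 0.192 for Fgf3). The part of choroid plexus in these calls was not tested. Aqp6, a water channel gene, at 0.746, 0.0513 and 0.151 TPM against 3.78 to 13.2 TPM, was lower by -4.82 (SE 0.73, adjusted p = 0.024), a call lost without M replicate 1 or THy/PHy replicate 2 or 3 (adjusted p up to 0.136).

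Of 23 signalling genes, the ligands and targets of Shh, Fgf, Bmp and Wnt, 1 was higher and 1 lower against the average (median log2 fold change -0.16). That was 4.35% in each direction, beside 0.487% higher and 0.554% lower over all tested genes. At an unadjusted p under 0.05, 5 were higher and 7 lower (edgeR), and DESeq2 called 2 higher and 5 lower. Wnt8b, a Wnt ligand of the forebrain, stood at 11.2, 13.8 and 3.58 TPM in THy/PHy, at 0.57 and 1.9 TPM in M and at 0, 0.174 and 0.19 TPM in H (4.54, SE 0.63, adjusted p = 0.0159), and Fgf15 of neural progenitors at 13.7, 8.56 and 5.79 TPM against 17.8 to 42.9 TPM (-1.55, SE 0.25, adjusted p = 0.0323). The Wnt8b call was lost without M replicate 1 or THy/PHy replicate 1 or 2 (adjusted p up to 0.0952), and the Fgf15 call without H replicate 2 or 3, M replicate 2 or THy/PHy replicate 2 or 3 (adjusted p up to 0.173). Shh itself stood at 17.2, 14.7 and 8.29 TPM in THy/PHy, at 0.91 and 13.6 TPM in M and at 0.0522, 0.834 and 0.985 TPM in H (2.63, SE 0.77, adjusted p = 0.209), so that M replicate 2 lay within the range of THy/PHy. Its target Gli1 had an adjusted p of 0.0472 but a log2 fold change of 0.91 (SE 0.17), under the limit, and its receptor and target Ptch1 a log2 fold change of 0.89 (SE 0.18, adjusted p = 0.0686).

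Receptors and processing enzymes gave 0 calls by edgeR against the average, beside 0.487% higher and 0.554% lower over all tested genes. Of 17 feeding and hormone receptors 0 passed edgeR's test against the average (2 higher and 0 lower at an unadjusted p under 0.05, and 2 higher called by DESeq2), with a median log2 fold change of -0.11. Lepr, the leptin receptor, stood at 5.85, 2.33 and 5.6 TPM in THy/PHy, at 3.56 and 3.8 TPM in M and at 14, 4.27 and 9.68 TPM in H. Mc4r, the melanocortin receptor that limits food intake, stood at 0.586 to 1.26 TPM in THy/PHy and at 0.471 to 1.8 TPM in the reference libraries, so that both receptors overlapped. Of 9 genes of prohormone processing 0 passed (edgeR, 3 higher and 0 lower at an unadjusted p under 0.05, and 1 higher by DESeq2). Against H alone 6 of the 9 were higher and 0 lower at an unadjusted p under 0.05, and against M alone 2 and 0. For the receptors these edgeR counts were 2 higher and 1 lower against H, and 5 and 0 against M.

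Of the 190 obesity-associated genes listed by the study, 184 were tested, 3 were higher (Sim1, Pomc and Asb4) and 1 lower (Tfap2b). That is 1.63% and 0.543% of those tested, beside 0.487% higher and 0.554% lower over all tested genes. The lower share was thus near that of all genes, and Sim1 was also a marker of the comparison. The median log2 fold change was 0.00. Without H replicate 1, 5 were higher and 3 lower, and without M replicate 1, 2 and 2. The study did not choose the list on these libraries. Asb4, a subunit of a ubiquitin ligase found in arcuate neurons, stood at 35, 45.5 and 30.9 TPM in THy/PHy, at 10.2 and 12.6 TPM in M and at 12, 13.8 and 12.3 TPM in H. It was higher by 1.53 (SE 0.20, adjusted p = 0.0114) with separate groups, a call lost without M replicate 1 or 2 or THy/PHy replicate 2 or 3 (adjusted p up to 0.0657). Tub, the tubby gene, stood at 158.6, 136.2 and 104.5 TPM against 23 to 80.8 TPM, without overlap, and missed the threshold (1.15, SE 0.24, adjusted p = 0.0753). In bulk tissue, fewer cells of a type and less RNA per cell cannot be told apart, for these and all genes above.

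Markers of broad classes of cells gave few calls. Of 15 genes of progenitors and the cell cycle 0 passed edgeR's test against the average (4 higher and 0 lower at an unadjusted p under 0.05, and 1 higher by DESeq2), and of 12 genes of neuronal maturation 0 passed (1 and 1, and 0 by DESeq2). The 8 blood, 5 endothelial, 6 microglial and 12 mesenchymal markers gave 0 calls against the average by edgeR, 0 at an unadjusted p under 0.05 and 0 by DESeq2. The average hides opposite values for the mesenchymal markers, whose median log2 fold change was 0.89 against M and -0.94 against H (edgeR 0 calls in each, with 1 higher and 2 lower at an unadjusted p under 0.05, and DESeq2 1 higher against M and 1 lower against H). Against H alone 5 progenitor genes were higher at an unadjusted p under 0.05, and DESeq2 called 2. Among 5 thalamic markers 0 passed (1 lower at an unadjusted p under 0.05 and 1 lower by DESeq2). Among 7 glial markers Slc1a3, a glutamate transporter of radial glia, was lower, at 55.2, 44.6 and 36.1 TPM against 78.9 to 147.1 TPM (-1.01, SE 0.19, adjusted p = 0.04998), and the call held only without H replicate 1 among the 8 left-out fits (adjusted p up to 0.212).

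The 3 THy/PHy libraries differed from each other less than the H libraries and more than the M libraries did. The median SD of log2(TPM + 1) over genes at 5 TPM or more was 0.25 in THy/PHy, 0.11 in M and 0.44 in H. Tcf7l2, a Wnt effector of the thalamus, stood at 80.9, 96.9 and 320.9 TPM and Gbx2, a thalamic homeobox gene, at 9.43, 4.45 and 29.1 TPM, both highest in THy/PHy replicate 3, whose thalamic markers summed to 455.1 TPM against 174.6 and 185.6 TPM. Lbx1, a hindbrain factor, stood at 6.65 TPM in THy/PHy replicate 1 and at 0.0837 and 0 TPM in replicates 2 and 3. The 10 most variable named genes in THy/PHy were 8 pseudogenes of ribosomal and other proteins, Rpl19-ps11 the most variable, and the histone genes Hist1h2ao and H3f3c. Each has near-identical copies between which reads cannot be placed with certainty, and 0 of the 10 passed the test.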

How the data were processed

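Polyadenylated RNA of E14.5 punches was sequenced as single reads. Per the labels, reads were processed with CASAVA (version 1.8.2) and the authors quantified transcripts with kallisto on GRCm38 cDNA. The authors deposited an estimated count per transcript, not normalized between libraries, and TPM per gene from the same run. Of 109282 transcripts, 107987 were matched here to a gene symbol by the GENCODE annotation. For 331 symbols the summed TPM differed from the deposited gene TPM by over 1% plus 0.01, so that their counts may be incomplete. Unmatched transcripts held 0.537% to 0.676% of each library's counts.

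Gene counts, the sum over a symbol's transcripts, were rounded to whole numbers. Differences were tested with edgeR (version 4.0.16, TMM, filterByExpr, quasi-likelihood test, Benjamini-Hochberg adjustment) with 1 group for each of THy/PHy, M and H, which left 5 residual degrees of freedom. Genes were called at an adjusted p under 0.05 and a log2 fold change above 1 in size. The alternatives were DESeq2 (version 1.42.0), no filter, limma (version 3.58.1) on log2(TPM + 0.5) or log2(TPM + 0.1), all 70 libraries, a replicate block, M and H as 1 group, and leaving out each library. On simulated data with 16132 genes, 65 of 98 genes changed by 1.5 and 85 of 99 changed by 3 (log2) were recovered against the average of M and H, and 6 of 15935 unchanged genes were called. The simulated M and H had the same mean for every gene, libraries were independent, and none was made to stand apart as H replicate 1 did. These rates therefore need not hold for the real libraries.

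Named were the markers, the 10 called genes with the largest log2 fold change in each direction whose 3 THy/PHy libraries lay beyond all 5 reference libraries with at least 5 TPM on the higher side, up to 6 called members of each of 25 lists and the 10 most variable genes within THy/PHy. Other list members named were chosen after their values were seen. The comparison and the lists were chosen with earlier results of these data known. For counts of 3 or fewer in a region, ratios of pooled counts and floors (3 counts) replace fitted folds. The study lists collection batches for each embryonic region without tying them to library numbers, and neither batch nor shared embryos were modelled. Results for some genes are not reported here.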

Additional observations from a re-analysis of the deposited data

How the results depend on the processing

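DESeq2 called 177 genes higher and 276 lower against the average of M and H, 166 and 179 against M and 197 and 459 against H. These included all 80 higher and all 91 lower genes. A fit of all 70 libraries, adult ones included, called 287 and 348, 363 and 279, and 387 and 868. Against the average, limma on TPM with a pseudocount of 0.5 called 58 and 47, with 0.1 it called 44 and 44, and with 0.5 over all genes 41 and 26. Against M limma called 24 lower with 0.5, 21 with 0.1 and 54 with 0.5 over all genes. Against H it called 68, 64 and 27 lower and 52 and 39 higher, the 2 higher counts being those with 0.1 and over all genes. Under limma with 0.5 the median over all genes tested was -0.12 against M and 0.16 against H, beside 0.00 and -0.02 under edgeR. The limma fits differ in test, scaling and filter, and these were not separated. With M and H as 1 group, 55 were higher and 57 lower. Without a filter on low counts the 6 counts stayed within 1.5 times. The fit with the replicate number as a block called 45 and 32, 8 and 5, and 39 and 56, with fewer residual degrees of freedom. Of libraries with the same number, THy/PHy and H deviated from their region means with correlations of -0.213, 0.176 and -0.219. THy/PHy replicates 1 and 3 correlated best with an H library of another number. Deviations within a region sum to 0, so with 2 or 3 libraries these values cannot decide whether libraries are paired. The numbers were not taken as a pairing. Embryos are shared across regions in a way the sources used here do not state, and the spread was estimated as if libraries were independent. The serial numbers in the sample labels run on within 3 sets. The first holds M, H and THy/PHy replicate 1. The next holds H and THy/PHy replicate 2 with F, and the last M replicate 2 with H and THy/PHy replicate 3. What the serial numbers stand for is not stated. The block put M replicate 2 with replicate 2 of H and THy/PHy, and a fit with these sets was not run. Leaving out each library gave 38 to 177 higher and 29 to 160 lower genes against the average, 6 to 109 and 5 to 104 against M, and 35 to 122 and 44 to 234 against H.

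Of the 55 genes the rule named, those that changed direction under any alternative were near-identical copies that were not called; other genes in the text were not followed across alternatives. Under limma with 0.5, also over all genes, Rpl19-ps11 was -2.34, Hist1h2ao -1.51, Rpl30-ps8 -1.81, Rpl27-ps3 -1.785 and H3f3c -0.10. With 0.1 the values were -3.11, -2.27, -1.905, -2.55 and -0.62, and Rpl30-ps9 was -0.056. With M and H as 1 group Rpl19-ps11 was -0.00, Rps12-ps4 -0.43, Hist1h2ao -0.515, Rpl30-ps8 -0.028 and Rpl30-ps9 -1.92. With the replicate block Rpl30-ps8 was -0.021 and Rpl27-ps3 -0.29. Leaving out a library gave -0.22 to 1.38 for Hist1h2ao, with the lowest without THy/PHy replicate 2. The range was -0.11 (without THy/PHy replicate 3) to 0.95 for Rpl30-ps8, -9.62 (without THy/PHy replicate 1) to 5.10 for Rpl27-ps3 and -7.40 (without THy/PHy replicate 2) to 6.60 for H3f3c. The cause was not tested. With 2 or 3 libraries a region, genes with a wide spread in H, such as Otp, En1 and Pax5, did not pass, and 11 of 30 peptide genes, Avp and Hcrt among them, did not pass the filter on low counts.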

Other observations

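The groups below were picked after the values were seen, so their counts are a description with no test of the group. Among genes expressed from 1 parental allele, 27 of 30 on the list were tested, 7 were higher in THy/PHy than in the average of M and H and 0 lower, with a median log2 fold change of 0.74. Without H replicate 1, 11 of 26 were higher, and 4 were without M replicate 1 or 2 or THy/PHy replicate 2 or 3. Dlk1, a Notch-like ligand that restrains differentiation, stood at 675.6, 920.5 and 652.4 TPM in THy/PHy, at 86.8 and 78.9 TPM in M and at 115.3, 102.2 and 89.2 TPM in H, and at 61 TPM in F. Its log2 fold change was 2.97 (SE 0.18, adjusted p = 0.0003415). Rtl1, from the same imprinted cluster, stood at 18.1, 22.3 and 14.3 TPM against 2.38 to 4.62 TPM (2.29, SE 0.27, adjusted p = 0.00701). Magel2, a ubiquitin ligase regulator of the Prader-Willi region, stood at 129.9, 138.8 and 90.7 TPM against 7.5 to 26.9 TPM (2.51, SE 0.23, adjusted p = 0.00297). The groups of all 3 genes were separate. Peg10, Dio3, Zdbf2 and Asb4 were the other 4.

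Among lower genes, 4 of 6 Iroquois genes, Irx1, Irx2, Irx3 and Irx5, homeodomain factors of neural tissue behind the rostral forebrain, were lower against the average, against M and against H. Irx2 stood at 6.3, 4.07 and 10.5 TPM in THy/PHy, at 99.5 and 115.7 TPM in M and at 50.8, 82.3 and 86 TPM in H (-3.86, SE 0.33, adjusted p = 0.00189). Ebf2 and Ebf3, helix-loop-helix factors of young neurons, were 2 of 4 Ebf genes and were lower too. Ebf3 stood at 51.5, 58.5 and 49.5 TPM in THy/PHy, at 221.2 and 258.6 TPM in M and at 248.5, 375.2 and 304.6 TPM in H (-2.36, SE 0.21, adjusted p = 0.00244). Tfap2a, with Tfap2b the other of 2 lower AP-2 genes among 5, stood at 1.92, 1.28 and 2.52 TPM in THy/PHy, at 14.7 and 29.2 TPM in M and at 74.6, 95.4 and 61.5 TPM in H (-4.35, SE 0.44, adjusted p = 0.00394). All reference libraries lay above THy/PHy for these 3 genes.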
